A study of Mus musculus with 6 samples.

Results

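Gamma-aminobutyric acid (GABA) is the transmitter of nearly all neurons of the striatum, and the genes described here make it, load it into vesicles and break it down. The list named 4 genes, Gad1, Gad2, Slc32a1 and Abat, and every probe set annotated to exactly 1 of them was taken. This gave 3 genes of the 8251 measured, Gad1, Gad2 and Slc32a1, with 1 probe set each of 12422 tested. No probe set was assigned to Abat alone, and Abat was not analysed here. The list was chosen by measured values: the log2 difference of Gad1 between Hdh4/Q80 and wild-type striatum led to it, with the other steps of GABA handling set beside it. For that reason the group differences of the listed genes are given as descriptions and carry no test.

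The samples were striata of 3 Hdh4/Q80 mice and 3 wild-type littermates, 1 array per mouse. The labels give all 6 mice as 12-month-old C57BL/6 females. The mouse huntingtin gene (Htt, formerly Hdh) of the Hdh4/Q80 model carries an expanded CAG repeat; zygosity is not stated in the labels used here. No other allele or agent is labelled in either group. The comparison asks which striatal messenger RNAs differ in level between mutants and littermates, and each value is a log2 expression level of 1 probe set. The replicate numbers 7 to 9 (Hdh4/Q80) and 4 to 6 (wild-type) are those of the sample titles.

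Gad1 and Gad2 encode the glutamate decarboxylases, which convert glutamate to GABA with pyridoxal phosphate as cofactor. The Gad1 enzyme is found throughout the neuron and makes most of the brain's GABA, while the Gad2 enzyme is anchored to membranes at nerve terminals and makes GABA for release. Slc32a1 encodes the vesicular GABA transporter, which fills synaptic vesicles with GABA and glycine. Abat encodes GABA transaminase, the mitochondrial enzyme that starts GABA breakdown after plasma membrane transporters have taken it up. In the striatum GABA is released by the spiny projection neurons, which are the principal cells and the ones most vulnerable in Huntington's disease, and by several classes of interneuron.

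The promoters of the 3 measured genes are shown as background, since these are separate genes of 1 pathway. Their group differences were not tested against each other, and any bearing of the sequences on the expression values was not tested. RefSeq (GRCm38.p6) places all of these on the plus strand of chromosome 2, and each line gives the 250 bases before the annotated start, 5′ to 3′. The positions are chr2:70561879-70562128 for Gad1, chr2:22622077-22622326 for Gad2 and chr2:158610508-158610757 for Slc32a1. Capitals mark matches, on either strand, to the GC box GGGCGG, the TATA box TATAAA, the cAMP response element TGACGTCA or the homeodomain core TAATTA. The capital stretches do not overlap.
Gad1: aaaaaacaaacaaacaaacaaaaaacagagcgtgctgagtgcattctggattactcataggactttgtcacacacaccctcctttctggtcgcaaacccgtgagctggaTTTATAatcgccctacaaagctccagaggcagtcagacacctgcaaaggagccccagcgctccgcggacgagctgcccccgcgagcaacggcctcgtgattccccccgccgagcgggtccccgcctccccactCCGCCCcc
Gad2: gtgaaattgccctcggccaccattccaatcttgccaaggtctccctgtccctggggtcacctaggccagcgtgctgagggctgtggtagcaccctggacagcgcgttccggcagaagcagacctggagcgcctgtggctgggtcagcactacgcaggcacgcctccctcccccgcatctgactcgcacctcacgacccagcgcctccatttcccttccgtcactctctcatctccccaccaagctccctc
Slc32a1: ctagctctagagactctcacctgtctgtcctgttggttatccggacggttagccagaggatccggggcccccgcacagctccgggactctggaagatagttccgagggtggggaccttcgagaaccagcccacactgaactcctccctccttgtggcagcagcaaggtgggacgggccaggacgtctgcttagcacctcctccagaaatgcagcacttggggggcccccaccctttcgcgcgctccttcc
The Gad1 window held 1 TATA box match beginning 141 bases before the start and 1 GC box match beginning 8 bases before it, both on the minus strand. The Gad2 and Slc32a1 windows held none of the 4 motifs. Among the 32851 promoter windows of the same length in the table, 32.7% held the GC box, 12.4% the TATA box, 1.55% the cAMP response element and 4.84% the homeodomain core. The GC content was 58% for Gad1, 64% for Gad2 and 62.4% for Slc32a1, against a median of 52.4% over the table. The 17, 13 and 12 CpG dinucleotides of the Gad1, Gad2 and Slc32a1 windows exceeded the median of 6. A match is a run of letters and not a shown binding site, and the arrays did not measure promoter activity.

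Of 15 spiny projection neuron markers 9 were measured, and 6 of these lay above the array medians (7.10 to 7.13) on all 6 arrays. Among them the enkephalin precursor Penk read 12.92 to 13.14 and the D2 dopamine receptor Drd2 9.52 to 9.90, while the striatal regulator Rgs9 (5.50 to 5.76) and the transcription factor Isl1 (6.35 to 6.54) lay below the medians. Probe sets of different genes cannot be compared in level, and all 6 measured astrocyte markers also lay above the medians, so these values do not settle the makeup of the tissue. Hdh4/Q80 replicate 8 stood apart from the other arrays. Its mean correlation with them across probe sets was 0.992, against 0.995 to 0.997 for the other 5 arrays. Across all probe sets on the arrays, 0 of 12422 (0%) passed limma's test at a Benjamini-Hochberg adjusted p of 0.05 (lowest value 0.857). Without adjustment 634 (5.1%) had a p under 0.05, of which 360 (2.9%) were higher and 274 (2.21%) lower in Hdh4/Q80 striatum. All values below stand against that background.

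Gad1 read 10.64, 10.80 and 10.71 in Hdh4/Q80 replicates 7, 8 and 9, against 10.52, 10.51 and 10.33 in wild-type replicates 4, 5 and 6. All 3 mutants were above all 3 wild types, with a gap of 0.12 between the lowest mutant and the highest wild type. The mean log2 level was 10.71 ± 0.0825 in Hdh4/Q80 striatum and 10.45 ± 0.108 in wild-type striatum (SD, n = 3 mice each). The difference of 0.26 on the log2 scale has an SE of 0.0806 and a 95% interval of 0.08 to 0.44, or 1.2-fold with an interval of 1.06 to 1.36. That interval takes no account of Gad1 having been picked for this difference. The 3 mutants lay above the 3 wild types for 829 of the 12422 probe sets (6.67%), and 1.09% of probe sets had a larger positive difference than Gad1. The probe set was bright, above 97.6% of probe sets in its mean level. The lowest array was wild-type replicate 6 and the highest Hdh4/Q80 replicate 8. Leaving out wild-type replicate 6 gave a difference of 0.20, leaving out Hdh4/Q80 replicate 8 gave 0.22, and leaving out both gave 0.16, a smaller value by construction since these are the extreme arrays.

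Gad2, the other decarboxylase gene, read 7.59, 7.52 and 7.52 in Hdh4/Q80 replicates 7, 8 and 9, against 7.44, 7.61 and 7.55 in wild-type replicates 4, 5 and 6. All mutants lay within the range of the wild types. The mean log2 level was 7.55 ± 0.0398 in Hdh4/Q80 striatum and 7.54 ± 0.0866 in wild-type striatum (SD, n = 3 mice each). The log2 difference was 0.01, and its 95% interval ran from -0.15 to 0.17. On the fold scale the interval ran from 0.9 to 1.13. The Gad2 probe set lay near the middle of the arrays, above 60.1% of probe sets in mean level.

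Slc32a1, which loads the transmitter that both enzymes make, read 11.43, 11.36 and 11.64 in Hdh4/Q80 replicates 7, 8 and 9, against 11.61, 11.44 and 11.32 in wild-type replicates 4, 5 and 6. The groups overlapped over nearly their whole ranges. The mean log2 level was 11.48 ± 0.145 in Hdh4/Q80 striatum and 11.46 ± 0.145 in wild-type striatum (SD, n = 3 mice each). The difference was 0.02, and its 95% interval of -0.20 to 0.24 spans 0.871-fold to 1.18-fold. The probe set was brighter than 99.2% of probe sets. Nearly saturated probe sets can show smaller fold changes, and whether this one was near saturation was not tested.

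**Figure D1:**
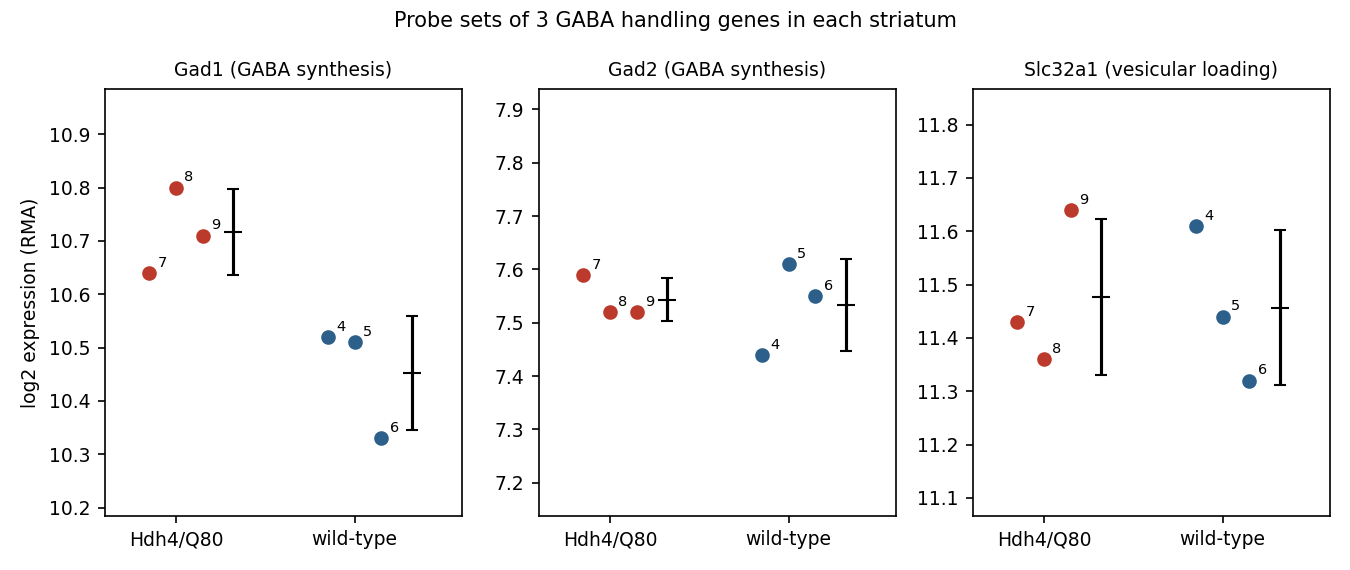
Log2 expression of the Gad1, Gad2 and Slc32a1 probe sets (vertical axis, RMA units, the same span in each panel) in 3 Hdh4/Q80 and 3 wild-type striata. Points are mice labelled by replicate number, and bars are the mean ± SD of 3 mice. The Hdh4/Q80 points lie above the wild-type points for Gad1 and overlap them for Gad2 and Slc32a1.

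The 3 genes did not vary together from mouse to mouse. Measured from each probe set's own mean over 6 arrays, Hdh4/Q80 replicate 8 was 0.22 above the mean for Gad1, 0.02 below it for Gad2 and 0.11 below it for Slc32a1. Wild-type replicate 4 was 0.07 below for Gad1, 0.10 below for Gad2 and 0.14 above for Slc32a1. Wild-type replicate 6 was low for both Gad1 (-0.26) and Slc32a1 (-0.15). The Gad1 deviation minus the Gad2 deviation of the same array averaged 0.13 ± 0.117 in Hdh4/Q80 striatum and -0.13 ± 0.149 in wild-type striatum (SD, n = 3 each). These ran from 0 to 0.23 in the mutants and from -0.27 to 0.03 in the wild types, so the groups overlapped in this measure. The Gad1 deviation minus the Slc32a1 deviation averaged 0.12 ± 0.187 in Hdh4/Q80 and -0.12 ± 0.0798 in wild-type striatum. Both measures include the Gad1 difference itself and were not tested.

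Within the groups, the pooled SD was 0.096 for Gad1, 0.0674 for Gad2 and 0.145 for Slc32a1, against a median of 0.099 over all probe sets. Slc32a1 was thus the most variable of the 3 between mice of 1 group, with a larger SD than 79.1% of probe sets. Among the 1000 probe sets nearest to each in level, Gad1 had a larger SD than 33.3%, Gad2 than 27.4% and Slc32a1 than 66.9%.

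The other GABA genes were described from 8 lists of 56 genes, of which 30 had a probe set of their own. None of the 30 passed the test in either direction over all probe sets. At an unadjusted p under 0.05 there were 2 higher and 0 lower, against 179 higher and 176 lower among all 8251 genes. All mutants lay above all wild types for 2 of the 30 (background 5.87% of the 8251 genes). Of the 30 differences 17 were above 0 and 13 below, with a median of 0.02, against -0.01 over all 8251 genes. In bulk tissue, fewer cells of a type and less RNA per cell cannot be told apart.

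For precursor supply and the cofactor, 9 of 15 genes were measured, with a median difference of 0.07 and 0 passing. The 2 genes with an unadjusted p under 0.05, Glul and Slc38a2, had probe sets that disagreed. Glul, the glutamine synthetase of astrocytes, read 9.43, 9.74 and 9.51 in Hdh4/Q80 striatum, against 9.42, 9.34 and 9.31 in wild-type striatum on its brightest probe set (difference 0.20 ± 0.09, SE, limma adjusted p = 0.857). Its dimmer probe set differed by -0.23 ± 0.0882 (SE), the opposite direction. Slc38a2, a sodium-coupled transporter of glutamine and other neutral amino acids, read 6.84, 6.86 and 6.54 in Hdh4/Q80 striatum, against 6.34, 6.44 and 6.66 in wild-type striatum. Its difference was 0.27 ± 0.11 (SE) there and -0.06, 0.02 and 0.01 on its 3 dimmer probe sets. Slc1a2, the main glutamate transporter of astrocytes, differed by -0.14 (95% interval -0.33 to 0.05), and Slc38a5, a glutamine transporter, by 0.10 (-0.05 to 0.24). All 3 Hdh4/Q80 values of Slc38a5, 7.83 to 7.85, were above the wild-type values of 7.70 to 7.78. Pdxk, the kinase that makes the decarboxylases' cofactor from vitamin B6, differed by -0.09 (-0.29 to 0.11).

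Uptake was covered by 2 of 4 plasma membrane GABA transporters, and 0 passed. Slc6a12, a betaine and GABA transporter, read 5.95 to 6.02 in Hdh4/Q80 striatum and 5.88 to 5.99 in wild-type striatum (difference 0.05, 95% interval -0.11 to 0.20). Slc6a13, a GABA transporter of the meninges, liver and kidney, read 8.19 to 8.49 in Hdh4/Q80 and 8.27 to 8.34 in wild-type striatum (0.03, -0.17 to 0.22). Of 5 genes for later steps of breakdown or other routes to GABA 2 were measured. Aldh9a1, an aldehyde dehydrogenase that can make GABA from a putrescine product, differed by -0.09 (-0.35 to 0.17), on a probe set whose suffix marks possible binding to related transcripts. Odc1, which makes putrescine, differed by -0.03 (-0.18 to 0.12). No vesicular glutamate transporter of the list was measured.

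On the receiving side, 10 of 19 GABA-A receptor subunit genes were measured, with 7 differences above 0 and 3 below, a median of 0.03 and 0 passing. Gabrg3 had the smallest p of these, reading 6.10, 6.19 and 6.25 in Hdh4/Q80 striatum and 6.10, 6.06 and 5.97 in wild-type striatum (0.13, 95% interval -0.03 to 0.30). Gabra2, an alpha subunit abundant in the striatum, read 8.68, 8.23 and 8.14 in Hdh4/Q80 striatum and 8.53, 8.46 and 8.42 in wild-type striatum (-0.12, -0.40 to 0.16). Its highest array and its lowest arrays were all mutants. Gabra3 differed by -0.14 (-0.44 to 0.15), Gabrb1 by 0.07 (-0.10 to 0.25), Gabrb2 by 0.02 (-0.18 to 0.23) and Gabrd, a subunit of extrasynaptic receptors, by -0.01 (-0.30 to 0.27). Gabbr1, a subunit of the metabotropic GABA-B receptor, read 11.00, 10.80 and 11.13 in Hdh4/Q80 striatum and 11.13, 11.00 and 11.05 in wild-type striatum (-0.09, -0.29 to 0.12).

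The 4 measured genes of the inhibitory scaffold and receptor trafficking all had differences below 0, between -0.12 and -0.05, and 0 passed. Gphn encodes gephyrin, which anchors inhibitory receptors, and it read 8.06, 7.75 and 8.28 in Hdh4/Q80 striatum and 8.29, 8.05 and 8.09 in wild-type striatum (-0.11, 95% interval -0.39 to 0.17). Gabarap, Gabarapl1 and Gabarapl2, a family of trafficking and autophagy proteins, differed by -0.05, -0.06 and -0.12. In all 4 genes Hdh4/Q80 replicate 8 was the lowest array. Without it the differences were 0.03 for Gphn, 0.01 for Gabarap, 0.05 for Gabarapl1 and -0.05 for Gabarapl2, higher by construction. Replicate 9 was the highest mutant in all 4 genes. Leaving it out gave -0.24 for Gphn, -0.12 for Gabarap, -0.15 for Gabarapl1 and -0.18 for Gabarapl2, lower by construction. After cyclic loess the differences were -0.1 for Gphn, -0.01 for Gabarap, 0.01 for Gabarapl1 and -0.07 for Gabarapl2. The chloride cotransporters set the direction of current through GABA-A receptors. Slc12a2, which brings chloride in, read 8.58, 8.93 and 9.16 in Hdh4/Q80 striatum and 8.67, 8.54 and 8.82 in wild-type striatum (0.21, -0.09 to 0.51). Its 3 highest arrays were the same 3 that were highest in the choroid plexus markers described below, a tissue known to express Slc12a2 strongly. The part of these markers in the Slc12a2 values was not tested. Slc12a5, which exports chloride in neurons, differed by -0.03 (-0.26 to 0.21).

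**Figure D2:**
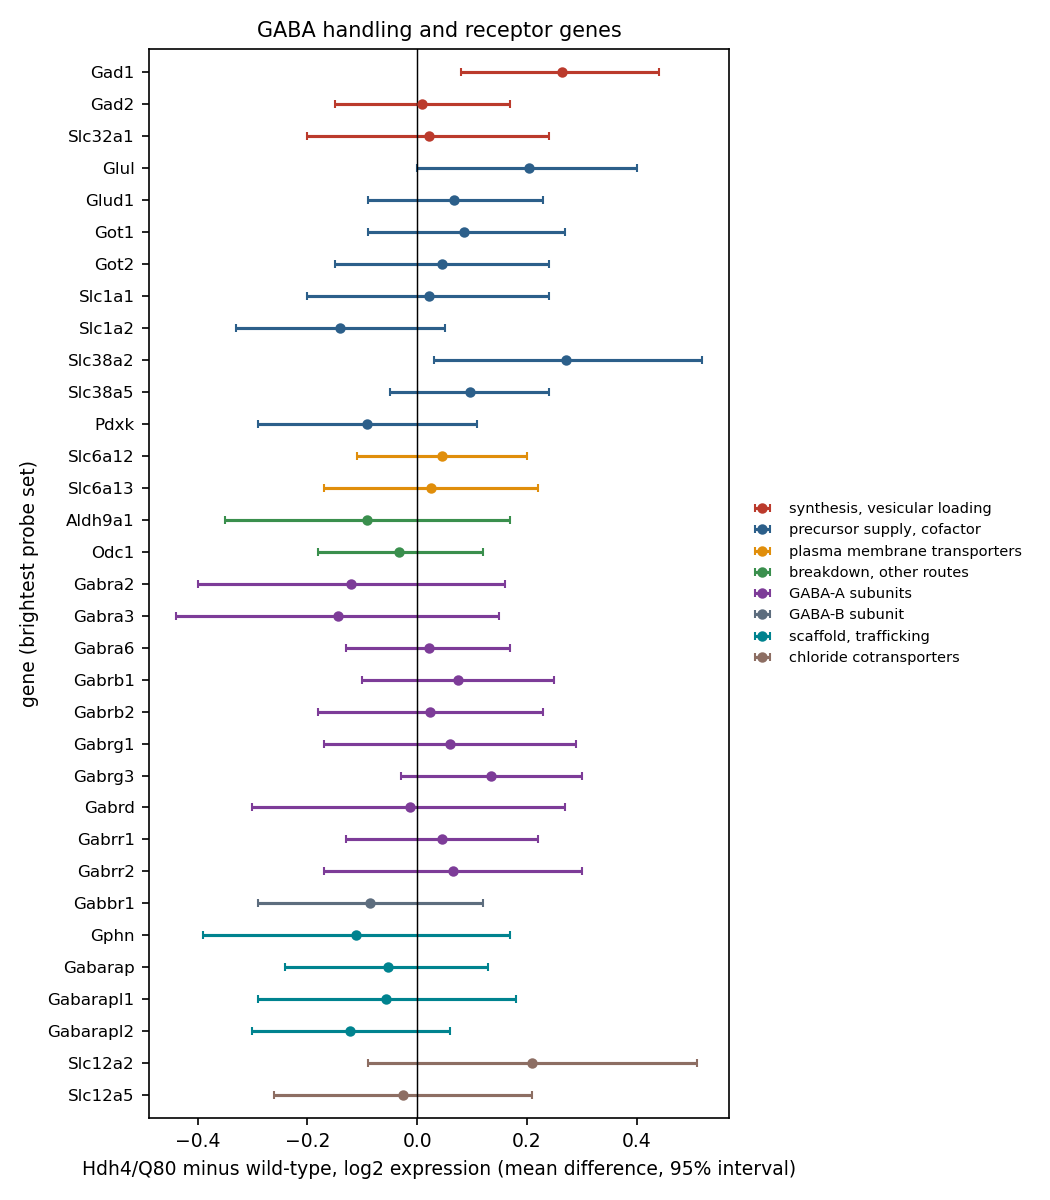
Mean difference, Hdh4/Q80 minus wild-type, in log2 expression (horizontal axis) with limma's 95% interval for Gad1, Gad2, Slc32a1 and 30 other GABA genes, 1 brightest probe set each, coloured by role. Gad1, at 0.26, is shown as a description, and the differences of the 30 other genes lie between -0.14 and 0.27 with none passing the adjusted test.

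Markers of neighbouring tissue differed between single arrays, and the sum of the cortical ones was highest where Gad1 was lowest and lowest where Gad1 was highest. Of 9 cortical projection neuron markers 6 were measured, none of them with all arrays above the array medians. Their summed linear level was 432, 341 and 386 array units in Hdh4/Q80 replicates 7, 8 and 9, against 392, 349 and 583 in wild-type replicates 4, 5 and 6. Wild-type replicate 6, the highest in this sum, was the lowest in Gad1, and Hdh4/Q80 replicate 8, the lowest in this sum, was the highest in Gad1. Tbr1, a transcription factor of cortical projection neurons, read 6.96, 5.95 and 6.92 in Hdh4/Q80 and 6.83, 6.10 and 8.04 in wild-type striatum. It had the largest pooled SD of the 6 (0.803) and weighed most in the peak of the sum. Of the 6 differences 4 were below 0 and 2 above, Neurod1 (0.22) and Neurod6 (0.12), both on dim probe sets. All 3 mutants lay above all 3 wild types for Neurod1. Cck, a neuropeptide precursor abundant in cortex and listed here with the interneuron markers, read 8.52, 7.07 and 8.52 in Hdh4/Q80 and 8.09, 7.31 and 9.38 in wild-type striatum. Gad1 was also higher in Hdh4/Q80 replicates 7 and 9 (10.64 and 10.71), with cortical sums of 432 and 386, than in wild-type replicate 5 (10.51), with a lower sum of 349. Without the arrays of highest and lowest cortical sum, a choice made after seeing the data, the Gad1 difference was the 0.16 given above, since these are also its extreme arrays.

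Of 5 choroid plexus markers 3 were measured, and all 3 differences were above 0. Their summed level was 559, 1876 and 2857 array units in Hdh4/Q80 replicates 7, 8 and 9, against 570, 525 and 1508 in wild-type replicates 4, 5 and 6. Ttr, the transthyretin gene and a leading choroid plexus product, read 8.46, 10.59 and 11.24 in Hdh4/Q80 and 8.48, 8.32 and 10.26 in wild-type striatum. Gad1 was highest on a pair of the arrays with a high sum and lowest on the remaining one. Among the 3 arrays with a low sum, Gad1 was 10.64 in Hdh4/Q80 replicate 7 and 10.52 and 10.51 in wild-type replicates 4 and 5. There the difference was 0.12, with 1 mutant mouse and therefore no estimate of its spread, and with the highest Gad1 mutant and the lowest wild type left out. Gad2 differed by 0.06 and Slc32a1 by -0.09 over the same 3 arrays. Of 5 thalamus and septum markers 4 were measured, and all 4 differences were above 0, with a median of 0.05. They summed to 1923, 2008 and 1826 array units in Hdh4/Q80 replicates 7, 8 and 9. The sums were 1799, 1811 and 1904 in wild-type replicates 4, 5 and 6, so the groups overlapped. Only Lef1 (0.11) had all mutants above all wild types, as did 5.87% of all genes.

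Markers of 3 further lists had summed levels that separated the groups, as Gad1 did, but in the other direction. The 7 microglia markers summed to 2646 to 3251 array units in Hdh4/Q80 striatum and 3505 to 3684 in wild-type striatum, with all 7 differences below 0 and 4 genes (C1qa, C1qb, C1qc and Tyrobp) lower in all mutants than in all wild types. The 7 oligodendrocyte markers summed to 11456 to 12240 in Hdh4/Q80 and 12484 to 13231 in wild-type striatum. Only the myelin genes Mobp (-0.31) and Mal (-0.23) separated the groups. Of the 7 differences 5 were below 0 and 2 above, Mbp (0.01) and Cnp (0.12), with a median of -0.03. Mbp, the brightest of the 7, read 12.16 to 12.39 in Hdh4/Q80 and 12.21 to 12.33 in wild-type striatum. The 5 markers of endothelium and blood summed to 3368 to 3647 in Hdh4/Q80 and 4017 to 4692 in wild-type striatum. This sum rests mostly on alpha-globin, Hba-a1 (-0.43), the brightest of the 5 and the only one that separated the groups. Of the 5 differences 3 were above 0 (Pecam1 0.15, Kdr 0.06 and Flt1 near 0) and 2 below, with a median of 0. Over all genes, 5.22% were lower in all mutants than in all wild types on their brightest probe set. Of the astrocyte markers 5 of 6 differences were below 0 and of the GABA interneuron markers 10 of 12, with overlapping sums. The sums of the 9 spiny projection neuron markers overlapped too, at 11088 to 12076 in Hdh4/Q80 and 10710 to 12772 in wild-type striatum. Of these 9 differences 6 were above 0 and 3 below, with a median of 0.02, and 0 of the 9 genes separated the groups. None of the markers passed the test over all probe sets. The part of any of these tissues or cell types in the Gad1 difference was not tested beyond these values.

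**Figure D3:**
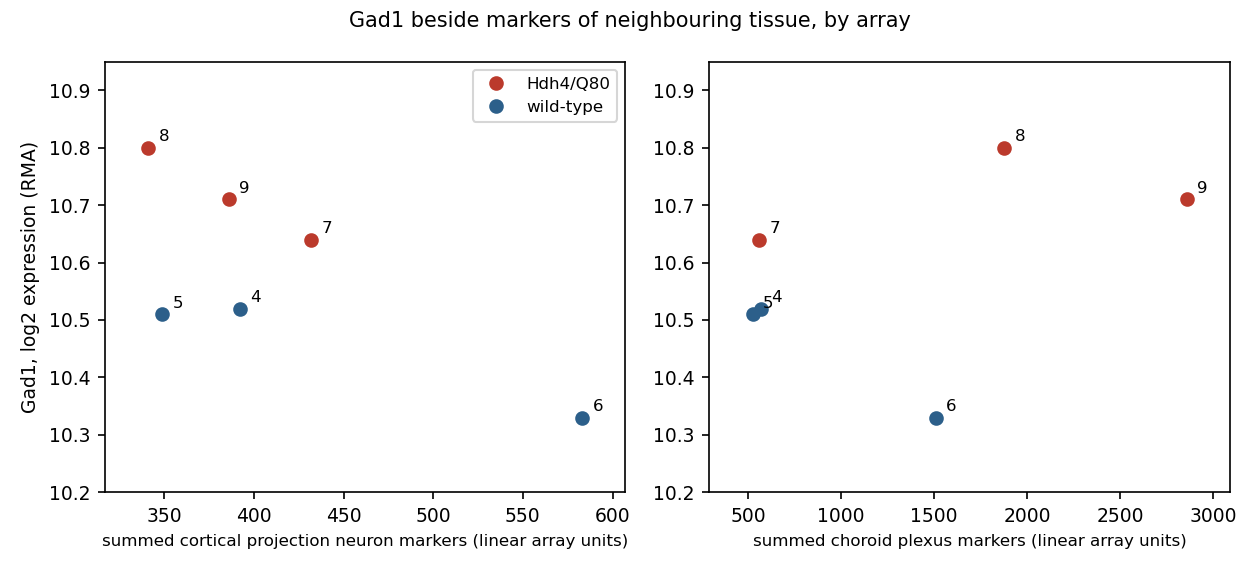
Gad1 log2 expression (vertical axis) against the summed linear level of 6 cortical projection neuron markers (left) and 3 choroid plexus markers (right) on each of 6 arrays, labelled by replicate number. Wild-type replicate 6 combines the highest cortical sum, 583, with the lowest Gad1, 10.33, and Hdh4/Q80 replicate 8 the lowest cortical sum, 341, with the highest Gad1, 10.80.

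The ranking of the mice by Slc32a1 recurred in some markers of spiny projection neurons. Slc32a1 was highest in replicate 9, then 7, then 8 among the mutants, and highest in replicate 4, then 5, then 6 among the wild types. Drd2, Foxp1 and Meis2 ranked the mice in the same order in both groups, 3 of 9 measured spiny neuron markers (33.3%), against 451 of 8250 other genes (5.47%). In the other marker lists the order recurred in 1 of 12 GABA interneuron markers (Dlx5), 1 of 6 astrocyte markers (Gja1) and 1 of 5 markers of endothelium and blood (Cldn5). Foxp1 and Meis2 encode transcription factors of spiny projection neurons. Foxp1 read 9.43 in both wild-type replicates 4 and 5, and Cldn5 8.56 in both wild-type replicates 5 and 6, equal at this rounding. Drd2 read 9.68, 9.52 and 9.88 in Hdh4/Q80 replicates 7, 8 and 9 and 9.90, 9.74 and 9.61 in wild-type replicates 4, 5 and 6. Of the 30 other GABA genes 3 (10%) shared the Slc32a1 ranking, namely Pdxk, Gabrd and Gabarapl1. Gabrd read 8.25, 7.91 and 8.38 in Hdh4/Q80 striatum and 8.34, 8.23 and 8.01 in wild-type striatum. This way of counting was chosen after the values were seen, the genes share the same 6 arrays, and no test was made.

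Gad1 ranked the mutants as replicate 8, then 9, then 7, and the wild types as 4, then 5, then 6, with the first 2 of these 0.01 apart. Of the 9 spiny neuron markers Penk and Ebf1 (22.2%) shared that ranking, against 187 of 8250 other genes (2.27%), and of the 30 GABA genes Glul did, on its brightest probe set. So did Lhx8, 1 of 2 cholinergic interneuron markers, whose mutant values were equal at this rounding (6.68). Ebf1 read 7.13 in both Hdh4/Q80 replicates 7 and 9, also equal at this rounding. Penk read 12.94, 13.14 and 13.03 in Hdh4/Q80 and 13.14, 13.00 and 12.92 in wild-type striatum, near the upper limit of the arrays. The suffix of the Penk probe set marks possible binding to related transcripts. Gad2 ranked the mutants as replicate 7, then 8, then 9, and the wild types as 5, then 6, then 4. Replicates 8 and 9 were equal at this rounding (7.52). That ranking recurred in 1 of 9 spiny neuron markers, the G-protein regulator Rgs9, and in 256 of 8250 other genes (3.1%). It also recurred in 1 of 12 GABA interneuron markers, the calcium-binding protein Pvalb of fast-spiking cells. Rasgrf2, 1 of 6 cortical projection neuron markers, and Slc12a5, 1 of the 30 GABA genes, shared it too. Pvalb read 11.54, 11.46 and 11.38 in Hdh4/Q80 striatum and 11.23, 11.52 and 11.50 in wild-type striatum.

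**Figure D4:**
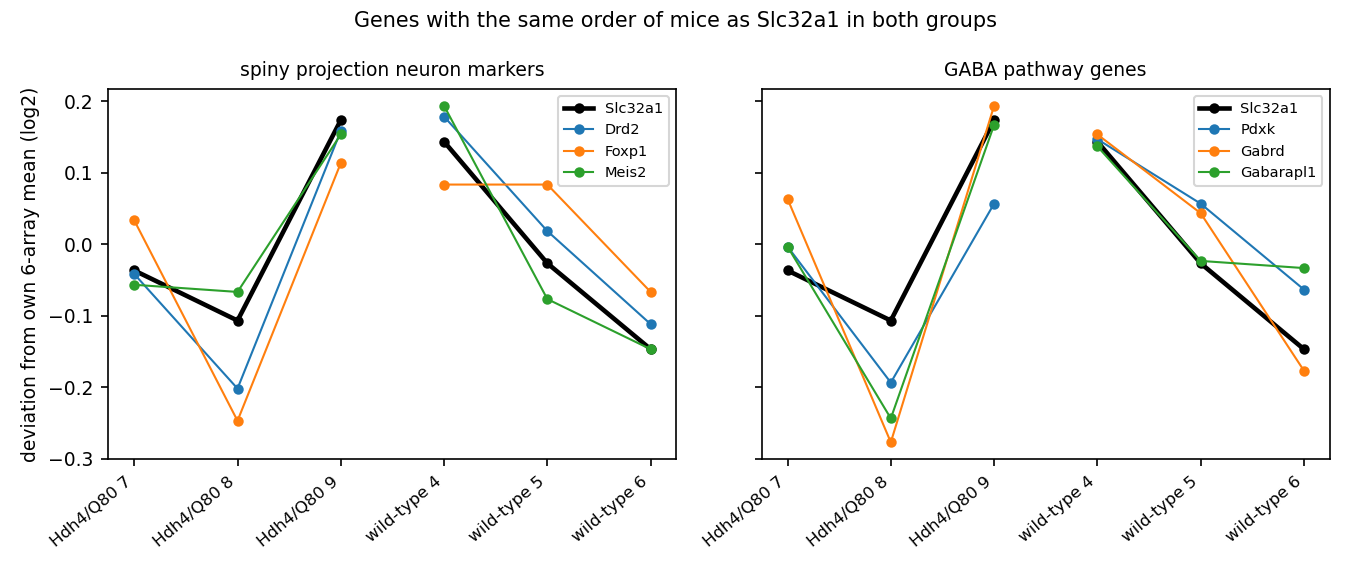
Log2 deviation of each gene from its own mean over 6 arrays (vertical axis) for Slc32a1 (black) and for the spiny neuron markers (left) and GABA genes (right) that rank the mice as Slc32a1 does in both groups. Hdh4/Q80 replicate 9 and wild-type replicate 4 lie highest in their groups, and Hdh4/Q80 replicate 8 and wild-type replicate 6 lowest.

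The genes whose pattern over the 6 arrays lay closest to each listed gene were found by the root mean square distance between log2 deviations, over 8250 other genes. For Gad1 these were the homeobox gene Hoxc8 (0.0322), the DNA polymerase gene Polm (0.038) and the immunoglobulin segment Igkv8-30 (0.0392), with mean levels of 6.15, 8.72 and 7.27. For Gad2 they were Plet1 (0.0162), the kinase gene Btk (0.017) and Gcdh (0.02), an enzyme of lysine breakdown. For Slc32a1 they were Sar1a (0.0246), a GTPase of vesicle export from the endoplasmic reticulum, the retinoblastoma relative Rbl2 (0.0283) and Ifrd1 (0.0294). Between the listed genes the distance was 0.168 for Gad1 and Gad2, 0.169 for Gad1 and Slc32a1 and 0.155 for Gad2 and Slc32a1. Counted by distance from Gad1, Gad2 ranked 3473 and Slc32a1 3535 among the 8250 genes. Counted from Gad2, Gad1 ranked 7285 and Slc32a1 6819, and counted from Slc32a1, Gad1 ranked 5793 and Gad2 4875. The distance takes in the group difference for which Gad1 was picked, so genes near Gad1 share it by construction. Hoxc8, Polm and Igkv8-30 differed by 0.24, 0.23 and 0.27, each with all mutants above all wild types. The ranks that involve Gad1 carry that difference too. With 6 arrays and 8250 genes such closeness is a description only.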

How the data were processed

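Striatal RNA from 6 mice was biotin-labelled with an Affymetrix kit and read on arrays, as the labels' protocols state; each mouse had its own array. The authors deposited log2 values for each probe set, which the submitters' processing notes credit to RMA (robust multi-array average) and the affy package. No source used here gives versions or the set of arrays normalized in 1 run. RMA equalises the arrays' distributions, so an overall change in RNA amount would not be seen, and it shrinks fold changes of dim probe sets. Nearly saturated probe sets can also show smaller fold changes. Detection calls were not used, so absence cannot be stated for any gene, and the number of arrays limits the precision.

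Of 12488 probe sets 66 manufacturer's controls were left out. The platform annotation gave 1 symbol to 10833 probe sets, several to 396 and none to 1193, and only the first kind was named. The probe set with the highest mean stood for a gene. Hdh4/Q80 was compared with wild type with limma 3.58.1 under R 4.3.3 (linear model, then empirical Bayes; 4 residual and 5.81 prior degrees of freedom), adjusted by Benjamini-Hochberg over 12422 probe sets with a threshold of 0.05. The fit was tested on simulated data with a group difference larger than that of Gad1. That run therefore does not show how often a difference of the size of Gad1's would pass. The intervals are limma's, at 95% and unadjusted. Marker sums add the back-transformed values of each list's brightest probe sets. Named genes were the listed ones, up to 4 of smallest p per GABA list with a fixed set of main striatal GABA genes, and the 3 nearest patterns per gene. The listed genes, the lists and the rules were chosen with earlier results of these data known. Genes named for a shared ranking of mice, and the cell type markers given with values, were picked with their values in view. Alternatives were renewed quantile normalization, median centring, cyclic loess, leaving out the dimmest 40% of probe sets, trended and robust moderation, averaging all probe sets of a gene, and leaving out mice.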

Additional observations from a re-analysis of the deposited data

How the results depend on the processing

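The count of probe sets passing the test stayed at 0 in all 11 alternatives to the limma fit, while the count at an unadjusted p under 0.05 ran from 251 without wild-type replicate 6 to 1153 without Hdh4/Q80 replicate 9 (1049 when Hdh4/Q80 replicate 7 was left out and 406 when wild-type replicate 5 was), against 634 with all mice. The Gad1 difference of 0.26 was 0.31 after quantile normalization, 0.32 after cyclic loess, 0.26 after median centring and 0.20 to 0.30 with 1 mouse left out. In the 2 settings added after seeing the data it was 0.16 on leaving out Hdh4/Q80 replicate 8 together with wild-type replicate 6, and 0.12 without Hdh4/Q80 replicates 8 and 9 and wild-type replicate 6, which leaves 1 mutant. Both settings drop the highest Gad1 mutant and the lowest Gad1 wild type, so a smaller difference follows from their construction. The Gad2 difference of 0.01 ran from -0.04 to 0.05 and the Slc32a1 difference of 0.02 from -0.06 to 0.10 with 1 mouse left out, so their sign was not settled. Slc32a1 differed by 0.07 after quantile normalization and 0.08 after cyclic loess. The median of the 30 GABA genes stayed between 0 and 0.03, and 0 of them passed in the 9 alternatives where calls were counted; calls were not counted on averaged probe sets. Averaging all probe sets of a gene left Gad1, Gad2 and Slc32a1 as they were, since each has 1. No paired analysis was possible because the groups share no replicate numbers. The number of arrays and the shrinkage of RMA limit what size of change could be seen.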
